A study of Mus musculus with 12 samples.

Results

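The long noncoding RNA (lncRNA) genes of the mouse renal cortex were described in 12 RNA-seq libraries from 4 groups of 3 mice. Members were the rows of the deposited count-per-million (CPM) table with the biotype lncRNA and a mean over the 12 sample columns of at least 0.5 CPM. Members were thus chosen by the mean CPM, and the rule took 807 of 9963 lncRNA rows, out of 55421 rows in the table. The mean CPM is a description and was given no test. The last members above the limit were Gm14161 at 0.506, 5033406O09Rik at 0.505 and 6330408M09Rik at 0.5003 CPM, and the first rows below it were Gm15853 at 0.4996, Gm6878 at 0.497 and Hoxaas3 at 0.497 CPM. Of the other lncRNA rows, 3867 had no read in any library.

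WT-D mice were wild type and diabetic after streptozotocin, a toxin of pancreatic beta cells, given at 50 mg/kg on 5 consecutive days. WT-C mice were wild type and not diabetic. KO-D mice carried a deletion on chromosome 4 in the interval matching human ANRIL and received the same streptozotocin course, and KO-C mice carried the deletion without diabetes. The mice were male, labelled as 8 weeks of age, and the cortex was taken after 2 months, and the labels give the strain of every sample as 129S6/SvEvTac-Del(4C4-C5)1Lap/Mmcd with the genotype set apart as wild type or knockout. The deletion is present in all cells of the body and takes out a stretch of noncoding DNA, not a single transcript. The noncoding genes of the Ink4 locus on chromosome 4 gave no check of the genotype, because Gm12602, Gm12606, Gm12609 and Gm12610 held between 0 and 6 reads in any library and none was a member.

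LncRNAs are transcripts without a known coding frame. Some build nuclear bodies, as Neat1 does for paraspeckles, some silence imprinted neighbours in cis, some host small nucleolar RNAs or microRNAs in their introns, and many start beside or opposite a coding gene. Interferons induce a set of lncRNAs together with their coding targets, in part through the interferon-stimulated response element, whose core is GAAA repeated after a short gap. In the kidney cortex most RNA comes from proximal tubule cells, with smaller shares from other nephron segments, endothelium, fibroblasts and leukocytes. In bulk RNA, fewer cells of a type and less RNA per cell cannot be told apart.

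The promoters of 5 members are shown because they carry that core and because each of these genes passed the test in both comparisons of diabetic with non-diabetic cortex, 4 of them higher and D630029K05Rik lower. They are RefSeq windows on GRCm38.p6, from 250 bases before to 50 bases after the annotated start, on the strand of the gene, and capitals mark each match to the core, spelled as GAAA, any 2 bases and GAAA again, or to its reverse complement, TTTC, any 2 bases and TTTC. The windows lie at chr13:120010092-120010391 (plus strand) for Gm36161, chr9:122310879-122311178 (minus) for Gm26797, chr9:97016100-97016399 (plus) for Gm16010, chr2:75135233-75135532 (minus) for Gm13652 and chr10:116966024-116966323 (plus) for D630029K05Rik.
Gm36161: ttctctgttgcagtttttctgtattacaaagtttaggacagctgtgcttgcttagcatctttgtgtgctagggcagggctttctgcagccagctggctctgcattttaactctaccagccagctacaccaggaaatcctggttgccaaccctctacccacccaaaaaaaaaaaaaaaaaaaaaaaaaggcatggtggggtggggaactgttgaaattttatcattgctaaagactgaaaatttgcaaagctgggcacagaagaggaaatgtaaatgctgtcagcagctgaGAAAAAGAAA
Gm26797: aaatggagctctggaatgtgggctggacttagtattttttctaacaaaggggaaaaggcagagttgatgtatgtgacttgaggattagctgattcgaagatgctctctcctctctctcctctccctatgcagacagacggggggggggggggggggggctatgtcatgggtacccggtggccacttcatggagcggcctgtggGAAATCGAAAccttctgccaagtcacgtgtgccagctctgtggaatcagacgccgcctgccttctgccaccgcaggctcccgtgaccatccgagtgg
Gm16010: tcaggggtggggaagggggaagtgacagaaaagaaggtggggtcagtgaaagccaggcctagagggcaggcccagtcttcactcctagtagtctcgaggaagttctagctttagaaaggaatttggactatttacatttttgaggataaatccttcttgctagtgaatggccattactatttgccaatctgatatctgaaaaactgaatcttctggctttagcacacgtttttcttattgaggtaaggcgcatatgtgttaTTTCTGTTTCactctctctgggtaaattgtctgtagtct
Gm13652: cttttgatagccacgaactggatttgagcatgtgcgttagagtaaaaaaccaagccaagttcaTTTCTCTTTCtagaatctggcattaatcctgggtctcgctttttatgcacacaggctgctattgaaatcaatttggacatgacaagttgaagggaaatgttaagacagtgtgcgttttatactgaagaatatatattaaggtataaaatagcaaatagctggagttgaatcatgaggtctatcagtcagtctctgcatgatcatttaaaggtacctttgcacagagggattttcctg
D630029K05Rik: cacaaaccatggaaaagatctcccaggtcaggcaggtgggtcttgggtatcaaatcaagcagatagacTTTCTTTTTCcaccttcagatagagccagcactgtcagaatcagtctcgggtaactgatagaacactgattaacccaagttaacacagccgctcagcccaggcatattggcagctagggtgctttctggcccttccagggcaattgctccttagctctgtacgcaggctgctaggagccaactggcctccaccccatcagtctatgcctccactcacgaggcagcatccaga

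The match lay 40 bases after the RefSeq start in Gm36161 and 11 bases after it in Gm16010. It lay 47 bases before the start in Gm26797, 187 before it in Gm13652 and 182 before it in D630029K05Rik. The RefSeq start was the start in the deposited table for Gm26797, 48 bases from it for Gm36161, 384 for Gm16010, 2516 for Gm13652 and 1567 for D630029K05Rik, so the last windows may not be the promoters used in these cells. Searching both strands of the 433 members with a RefSeq promoter found the core in 13 (3.00%), against 1079 of 27025 promoters of all genes (3.99%). Among the immune and interferon-linked members listed further below, only Gm36161 was in these 13. The window of 9330175E14Rik, which also rose, held 0 matches to the core. Among members that rose it was present in 4 of 26 with a promoter for WT-D against WT-C (15.4%) and in the same 4 of 41 for KO-D against KO-C (9.76%). Among members that fell it was present in 3 of 55 (5.45%) and 1 of 55 (1.82%) in these comparisons. Of the 4 that rose, Gm36161 and Gm26797 reached 0.5 CPM in diabetic groups only. Their rise was thus built into their being members, and the shares among rising members carry that limit. The letters CAAAGTCCA, a form of the HNF4 element, were in 2 member promoters (0.462%) and 0.555% of all promoters, and TATAAA was in 48 (11.1%) and 15.7%. These matches describe the windows and were given no test.

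The libraries held between 23781928 and 67336174 counted reads, and the members took 0.302% to 0.525% of them. Values below are CPM after scaling by trimmed mean of M-values (TMM) factors, which ran from 0.737 to 1.28. Differences were tested with limma on log2(scaled CPM + 0.1), with p-values adjusted by the Benjamini-Hochberg method over all genes tested and called at 0.05, and each error after a log2 fold change is its SE. Correlations between libraries of the same group were 0.969 to 0.990 over all genes tested and 0.870 to 0.968 over the members. On the first principal component of the members, which held 48.2% of their variance, WT-D replicate 3 scored -3.35, while the other diabetic libraries scored 9.83 to 14.5 and the non-diabetic libraries -14.4 to -5.81. WT-D replicate 1 carried markers of tissue outside the cortex: adipocyte markers summed to 61.8 CPM there, against 0.0316 to 3.91 CPM in the other 11, and adrenal markers to 33.4 CPM, against 1.68 to 3.06 CPM. Proximal tubule markers, of which 2 of 6 were called lower in WT-D and 5 of 6 in KO-D, summed to 16080 to 35640 CPM in WT-D and 50950 to 77400 CPM in WT-C, and to 16100 to 21730 CPM in KO-D and 46590 to 54050 CPM in KO-C. Macrophage markers summed to 93.6 to 161 CPM in WT-D and 65.5 to 83.9 CPM in WT-C, with 5 of 6 higher, and to 52.8 to 117 CPM in KO-D and 64.4 to 77.9 CPM in KO-C, with 3 of 6 higher. Podocyte markers were called higher in both genotypes (3 of 3), as were 2 of 3 endothelial markers, and fibroblast markers were higher for 3 of 3 in WT-D (95.4 to 139 CPM, against 16.6 to 41.1 CPM in WT-C) and 2 of 3 in KO-D (41.1 to 67.6 CPM, against 21.6 to 23.9 CPM in KO-C). The part of these cell types in the lncRNA results was not tested.

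Most members were scarce. Their median was 1.40 CPM, 54 reached 10 CPM and 290 lay under 1 CPM. All 807 passed the filter on low reads, and 627 had a mean of at least 0.5 CPM before scaling in each of the 4 groups, 87 in 3, 83 in 2 and 10 in only 1. Of these, 71 reached that mean in diabetic groups only and 9 in non-diabetic groups only, so a difference is built into their being members. Of the other 727, 32 rose and 92 fell in WT-D against WT-C, and 54 rose and 85 fell in KO-D against KO-C. Over all genes tested, 13.7% rose and 8.22% fell in WT, and 13.6% rose and 17.4% fell in KO. By position, 302 overlapped no coding gene, 287 shared exon bases with a coding gene on the opposite strand, and 106 started within 1000 bases of a coding gene transcribed the other way. A further 68 lay inside or across a coding gene on the opposite strand without shared exon bases, 25 did so on the same strand, and 18 shared exon bases on the same strand. The libraries were made from poly(A) RNA with a kit that does not mark strand, so reads of an overlapping member and its partner cannot be told apart by strand. A few rows typed as lncRNA carry names of coding genes, among them Anxa13, C4a and Ifi30. An older annotation, GENCODE M21, types 11 of the 807 members as protein coding.

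Neat1, the scaffold of paraspeckles, had the highest mean, 444 CPM, and it varied widely within groups. It had 445, 499 and 205 CPM in WT-D, against 479, 138 and 470 CPM in WT-C, and 448, 551 and 770 CPM in KO-D, against 424, 430 and 230 CPM in KO-C. The groups overlapped in WT and the KO groups did not, and neither difference passed the test (log2 fold change 0.18 ± 0.46 SE, adjusted p = 0.796, and 0.73 ± 0.46, adjusted p = 0.25). Malat1, a nuclear speckle RNA, had 378, 188 and 63.9 CPM in WT-D, against 85.6, 38.3 and 144 CPM in WT-C, and 215, 187 and 232 CPM in KO-D, against 118, 83.1 and 68.2 CPM in KO-C. Its log2 differences of 1.09 ± 0.54 (adjusted p = 0.154) and 1.27 ± 0.54 (adjusted p = 0.0889) missed the threshold, with WT-D replicate 3 below WT-C replicates 1 and 3 and all KO-D libraries above all KO-C libraries. Tug1, studied in podocytes, stayed between 40.9 and 62.2 CPM in every library.

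**Figure D1:**
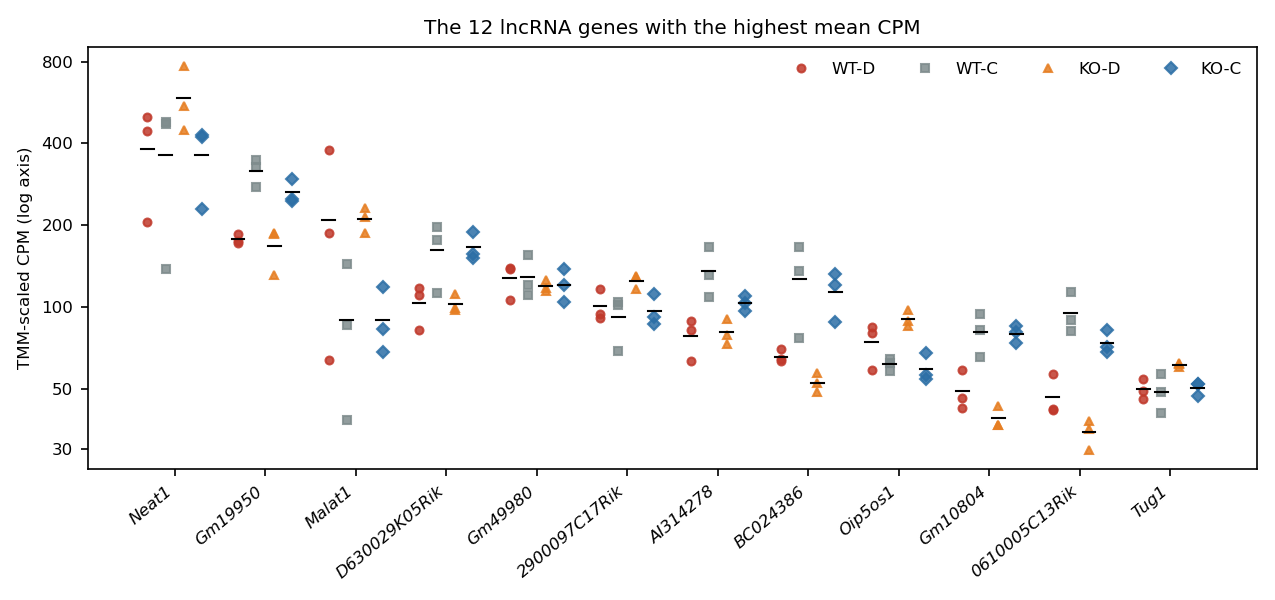
TMM-scaled CPM, on a log axis, of the 12 lncRNA genes with the highest mean CPM. Points are single libraries (3 a group, WT-D, WT-C, KO-D and KO-C from left to right for each gene) and short lines are group means. Gm19950, Gm10804 and 0610005C13Rik lay lower in every diabetic library than in any non-diabetic library of the same genotype, while Neat1 and Malat1 spread widely within groups.

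Among the other abundant members, several were lower in diabetic cortex. Gm19950 had 175, 171 and 186 CPM in WT-D, against 277, 328 and 347 CPM in WT-C, and 186, 131 and 185 CPM in KO-D, against 246, 250 and 297 CPM in KO-C. It fell in both genotypes without overlap of the groups (log2 -0.83 ± 0.16, adjusted p = 0.00392, and -0.67 ± 0.16, adjusted p = 0.00715). 0610005C13Rik had 42.0, 41.8 and 56.6 CPM in WT-D, against 114, 81.6 and 89.2 CPM in WT-C, and 38.2, 29.8 and 35.6 CPM in KO-D, against 68.2, 82.4 and 71.0 CPM in KO-C. Its log2 fold changes were -1.02 ± 0.17 (adjusted p = 0.0016) and -1.10 ± 0.17 (adjusted p = 0.00045), again with the groups apart. Gm10804 fell by 0.71 and 1.03 on the log2 scale (adjusted p = 0.00882 and 0.00052). BC024386 fell by 0.87 and 1.09 (adjusted p = 0.0192 and 0.00366), and its call in WT was lost without WT-D replicate 1, WT-C replicate 1 or WT-C replicate 3, where the adjusted p reached 0.0716. D630029K05Rik, whose promoter is shown above, had 82.6, 117 and 111 CPM in WT-D, against 113, 197 and 177 CPM in WT-C, and 98.8, 112 and 97.5 CPM in KO-D, against 151, 157 and 189 CPM in KO-C. It fell by 0.62 and 0.69 (adjusted p = 0.0418 and 0.0204), with WT-D replicate 2 above WT-C replicate 1, and either call was lost without any of 5 single libraries. AI314278 was called in WT (log2 -0.78 ± 0.17, adjusted p = 0.00738, against -0.36, adjusted p = 0.133, in KO), and the difference between genotypes did not pass its own test. Oip5os1, the Cyrano RNA that directs decay of the microRNA miR-7, had 97.9, 84.8 and 88.9 CPM in KO-D, against 56.1, 54.2 and 67.6 CPM in KO-C, and rose there (log2 0.61 ± 0.15, adjusted p = 0.00811). In WT its difference was 0.26 (adjusted p = 0.228). Per kilobase of exon the highest mean levels belonged to Gm10076 at 136 and Gm49980 at 105 CPM per kilobase, ahead of BC024386 at 53.4 and Gm19950 at 51.2.

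Comparing WT-D with WT-C asks what diabetes did to cortical lncRNAs in mice with the locus intact. Of the 807 members, 44 rose and 97 fell at an adjusted p of 0.05, which is 17.5%, beside a background of 22.0% over all 18461 genes tested (13.7% higher and 8.22% lower), and 50 passed 0.01, beside 8.33%. The median log2 difference of the members was -0.13 and that of all genes 0.05. The split between rising and falling members depends on the scaling: without TMM factors 74 rose and 39 fell, with the median of all genes at 0.417. The groups did not overlap for 243 members (74 higher and 169 lower), 30.1% beside a background of 36.7%. The count also depended on single libraries, being 49 without WT-D replicate 1, 72 without WT-D replicate 2, 92 without WT-C replicate 3 and 203 without WT-D replicate 3, the library that stood near the non-diabetic ones.

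Comparing KO-D with KO-C asks the same in mice without the locus. Here 76 members rose and 88 fell, 20.3% beside a background of 31.1% (13.6% higher and 17.4% lower), with medians of 0.05 for the members and 0.02 for all genes. With upper-quartile factors 107 rose and 65 fell, the median of all genes moving to 0.154, and without scaling 152 rose and 39 fell, the median moving to 0.349. The count was 93 without KO-D replicate 3 and 104 without KO-C replicate 2. The groups did not overlap for 339 members, 42.0% beside a background of 48.0%. These 2 comparisons share no library. Of the members that rose, 28 did so in both, 63.6% of those in WT and 36.8% of those in KO, where over all genes tested the shares were 63.1% and 63.7%. Of those that fell, 55 did so in both, 56.7% and 62.5%, where over all genes they were 58.6% and 27.6%.

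**Figure D2:**
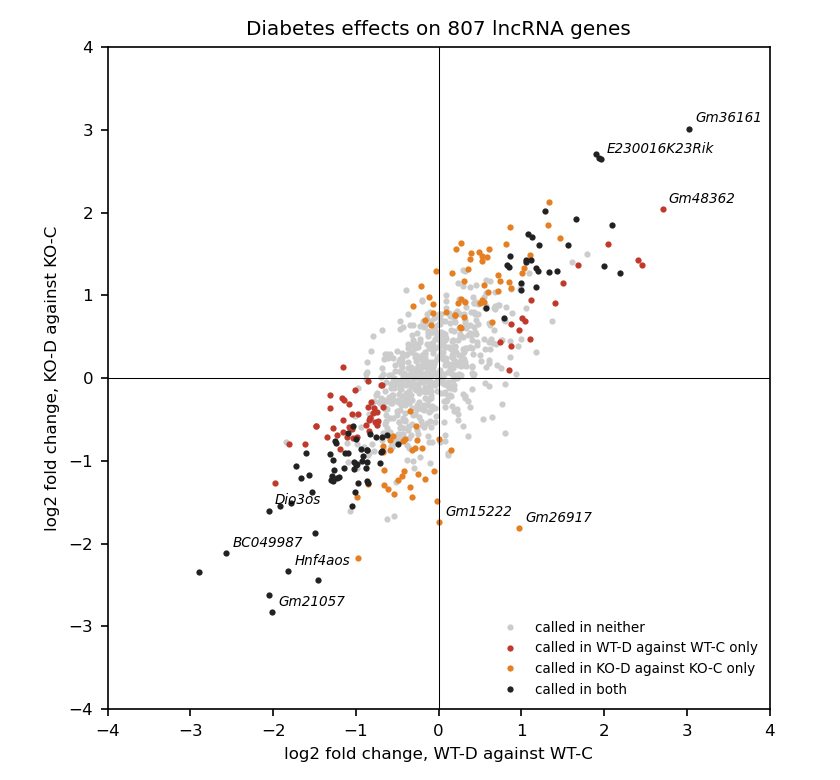
Log2 fold change of each of the 807 lncRNA genes for WT-D against WT-C (horizontal axis) and KO-D against KO-C (vertical axis), coloured by which comparison called the gene at an adjusted p of 0.05. Black points, called in both (28 higher and 55 lower), lie in the upper right and lower left, while Gm26917 and Gm15222 lie apart, at 0.97 and 0.01 on the horizontal and -1.82 and -1.74 on the vertical axis.

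Many of the largest increases were in members of low level, for which the added 0.1 CPM makes the fold change an understatement. Gm48362 and Gm47761, described further below, were not of low level and were also among the largest increases in WT. Gm36161, Gm26797, A530040E14Rik, E230016K23Rik, 9330175E14Rik, A530020G20Rik and Mirt1 reached 0.5 CPM in diabetic groups only, so their being members already required higher values there, and their values below are given with that limit. Gm36161 at chr13:120010390-120018931 (mm10), which overlaps no coding gene, had 3.02, 1.22 and 0.963 CPM in WT-D, against 0.133, 0.0280 and 0.170 CPM in WT-C, and 1.74, 1.58 and 2.14 CPM in KO-D, against 0.117, 0.222 and 0.0869 CPM in KO-C. In the non-diabetic libraries these values are 1 to 7 reads. It rose by 3.03 ± 0.42 and 3.01 ± 0.42 on the log2 scale (adjusted p = 0.000561 and 0.000256), every diabetic library lying above every non-diabetic one. Gm26797 at chr9:122295869-122310928 had 1.01, 1.10 and 0.447 CPM in WT-D, against 0.166, 0.140 and 0.102 CPM in WT-C, and 1.01, 0.788 and 0.922 CPM in KO-D, against 0.0293, 0.0952 and 0.0579 CPM in KO-C. The groups were apart in both genotypes (log2 1.94 ± 0.34, adjusted p = 0.00226, and 2.66 ± 0.34, adjusted p = 0.00018). Gm16010 and Gm13652, named after their values were seen because their promoters are shown, rose less. Gm16010 had 13.2, 14.3 and 5.09 CPM in WT-D, against 2.59, 5.44 and 5.23 CPM in WT-C, so WT-D replicate 3 lay among the non-diabetic libraries (log2 1.22 ± 0.37, adjusted p = 0.0328). In KO it had 9.57, 12.6 and 15.5 CPM in KO-D, against 4.75, 3.78 and 3.48 CPM in KO-C (log2 1.61, adjusted p = 0.00542). Gm13652 rose by 1.33 and 1.28 (adjusted p = 0.00924 and 0.0069), with its groups apart in both genotypes.

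Of the 31 immune and interferon-linked lncRNAs listed, 28 were lncRNA rows and 11 were members, some of them listed with earlier results of these data known, and 4 (Gm36161, A530040E14Rik, 9330175E14Rik and Mirt1) reached 0.5 CPM in diabetic groups only. In WT-D against WT-C 6 rose (54.5%, beside 13.7% of all genes) and 1 fell, with a median of 1.2, and in KO-D against KO-C 8 rose (72.7%, beside 13.6%), with a median of 1.41. Of the other 7 members on the list, 2 rose and 1 fell in WT and 4 rose in KO. Without WT-D replicate 1 the count of rising genes in WT was 4, and without WT-D replicate 3 it was 7. A separate list of interferon-stimulated genes, without lncRNA rows, was likewise chosen with earlier results of these data known, and its share carries that limit. All 28 of its genes rose in both genotypes (100%, beside 13.7% and 13.6% of all genes). Their medians were 3.30 and 3.41, and Mx1 and Mx2 among them are typed as polymorphic pseudogenes. AW112010, which interferon and bacterial products induce in mouse macrophages, had 5.47, 3.69 and 3.82 CPM in WT-D, against 2.06, 0.729 and 1.36 CPM in WT-C, and 3.35, 3.91 and 4.97 CPM in KO-D, against 0.851, 1.68 and 0.666 CPM in KO-C. It rose by 1.66 ± 0.37 and 1.92 ± 0.37 (adjusted p = 0.0077 and 0.00188) with no overlap. AW011738 and E230016K23Rik were not on the list. AW011738, which starts 2486 bases from the start of Isg15, an interferon-induced ubiquitin-like protein, had 4.08, 4.04 and 2.37 CPM in WT-D, against 2.13, 1.29 and 0.849 CPM in WT-C, and 4.14, 4.30 and 6.10 CPM in KO-D, against 1.09, 0.825 and 1.48 CPM in KO-C. It rose by 1.29 ± 0.33 and 2.02 ± 0.33 (adjusted p = 0.0163 and 0.000731), again with the groups apart, and an older annotation types this row as protein coding.

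E230016K23Rik overlaps the chemokine gene Ccl6 on the opposite strand, without shared exon bases. It had 1.36, 1.12 and 0.963 CPM in WT-D, against 0.399, 0.140 and 0.170 CPM in WT-C, and 1.52, 1.05 and 0.862 CPM in KO-D, against 0.0587, 0.19 and 0.0579 CPM in KO-C. It rose by 1.96 ± 0.36 and 2.65 ± 0.36 (adjusted p = 0.00309 and 0.000249), and no diabetic library reached down to a non-diabetic one. Ccl6 itself had log2 differences of 1.54 (adjusted p = 0.0304) in WT and 1.16 (adjusted p = 0.0705) in KO. 9330175E14Rik shares 78 exon bases with Nlrc5, the activator of MHC class I genes, on the opposite strand, and Nlrc5 itself rose by 3.55 and 3.40. It had 1.27, 0.803 and 0.0688 CPM in WT-D, against 0.0997, 0 and 0.102 CPM in WT-C, and 1.11, 0.722 and 1.16 CPM in KO-D, against 0.117, 0.0317 and 0.0579 CPM in KO-C. WT-D replicate 3 was at the level of WT-C, the call in WT (log2 1.90 ± 0.62, adjusted p = 0.0422) was lost without any of 5 single libraries, and that in KO (2.7 ± 0.62, adjusted p = 0.00516) was kept. Gm20559, whose nearest coding start is that of the interferon-induced gene Samd9l, rose by 1.08 and 1.74 (adjusted p = 0.0351 and 0.00187), and its WT call was likewise lost without any of 5 libraries. Gm16685, opposite the interleukin gene Il7, and Gm4419, studied in mouse mesangial cells, rose in KO-D against KO-C (log2 1.41 ± 0.31, adjusted p = 0.00447, and 0.76 ± 0.20, adjusted p = 0.0117). Their WT differences were 0.52 (adjusted p = 0.24) and 0.19 (adjusted p = 0.514). Mirt2, which endotoxin induces in mouse macrophages, went the other way in WT. It had 0.754, 0.986 and 1.10 CPM in WT-D, against 1.96, 2.02 and 2.17 CPM in WT-C, and fell by 1.05 on the log2 scale (adjusted p = 0.00717), while its difference in KO was -0.44 (adjusted p = 0.165).

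Gm36161, described above, and A530040E14Rik were also on that list. A530040E14Rik had 1.56, 1.01 and 0.756 CPM in WT-D, against 0.365, 0.0841 and 0.136 CPM in WT-C, and 0.884, 0.985 and 1.34 CPM in KO-D, against 0.205, 0.254 and 0.203 CPM in KO-C (log2 2.09 ± 0.37, adjusted p = 0.00228, and 1.85 ± 0.37, adjusted p = 0.00229). C030037D09Rik, which starts beside Msi2, the gene of an RNA-binding protein, had 2.30, 2.16 and 0.894 CPM in WT-D, against 0.332, 0.224 and 0.510 CPM in WT-C, and 2.78, 2.17 and 2.59 CPM in KO-D, against 0.910, 0.857 and 0.985 CPM in KO-C. The groups of both genes were apart, and C030037D09Rik rose by 1.99 ± 0.34 and 1.36 ± 0.34 (adjusted p = 0.00198 and 0.00904). 9530082P21Rik rose by 2.19 ± 0.37 and 1.27 ± 0.37 (adjusted p = 0.00184 and 0.0199). 9530082P21Rik and C030037D09Rik were not on the list. A530020G20Rik, also outside it, had 2.19, 0.963 and 0.378 CPM in WT-D, against 0.299, 0.280 and 0.374 CPM in WT-C, and 1.26, 1.18 and 1.40 CPM in KO-D, against 0.381, 0.317 and 0.0579 CPM in KO-C. It passed the test in KO (log2 2.12 ± 0.51, adjusted p = 0.00702) and missed it in WT (1.34, adjusted p = 0.0749). It shares 349 exon bases with Slc44a3 on the opposite strand, and reads of the pair cannot be told apart by strand. Slc44a3 rose by 0.92 in WT and 1.15 in KO (adjusted p = 0.00309 and 0.000384).

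**Figure D3:**
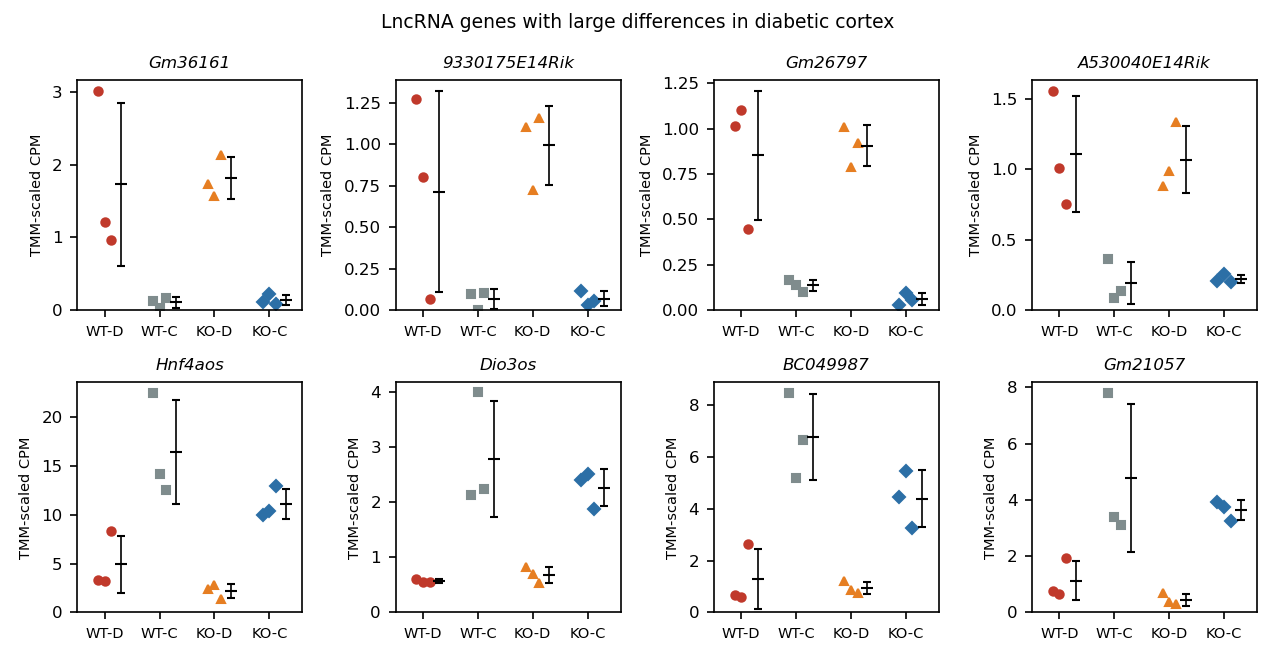
TMM-scaled CPM of 8 lncRNA genes with large differences in diabetic cortex. Points are single libraries and the bars beside them the mean ± SD of 3 mice, for WT-D, WT-C, KO-D and KO-C from left to right. The upper row was higher and the lower row lower in diabetic cortex, and the WT-D library of 9330175E14Rik at 0.0688 CPM sits among the non-diabetic ones.

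Among the largest decreases, Hnf4aos and BC049987 lay opposite or beside genes of proximal tubule epithelium. The proximal tubule marker sums given above were lower in the diabetic groups, and a link between them and these decreases was not tested. Hnf4aos at chr2:163493807-163541720 runs opposite Hnf4a, the gene of a transcription factor of proximal tubule identity. It had 3.278, 3.21 and 8.32 CPM in WT-D, against 22.5, 14.2 and 12.6 CPM in WT-C, and 2.43, 2.76 and 1.40 CPM in KO-D, against 10.01, 10.4 and 12.9 CPM in KO-C. It fell by 1.81 and 2.33 on the log2 scale (adjusted p = 0.00409 and 0.000435) with the groups apart, while Hnf4a had log2 differences of -0.37 (adjusted p = 0.304) and -0.69 (adjusted p = 0.0526). BC049987 starts 995 bases from Treh, the gene of the brush border enzyme trehalase, on the other strand. It had 0.668, 0.596 and 2.65 CPM in WT-D, against 8.47, 5.19 and 6.66 CPM in WT-C, and 1.2, 0.854 and 0.743 CPM in KO-D, against 4.46, 5.46 and 3.27 CPM in KO-C. It fell by 2.57 and 2.12 (adjusted p = 0.00182 and 0.00273), and Treh had differences of -0.56 (adjusted p = 0.113) and -1.23 (adjusted p = 0.00235).

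Dio3os, next to the deiodinase gene Dio3 in the imprinted Dlk1-Dio3 region, had 0.606, 0.550 and 0.550 CPM in WT-D, against 2.13, 4.01 and 2.24 CPM in WT-C, and 0.821, 0.690 and 0.535 CPM in KO-D, against 2.41, 2.51 and 1.88 CPM in KO-C. It fell by 2.05 and 1.60 (adjusted p = 0.000468 and 0.00092), the diabetic libraries lying close together below all others, and Dio3 itself stayed at or under 0.196 CPM. Gm21057 had 0.779, 0.665 and 1.93 CPM in WT-D, against 7.81, 3.39 and 3.13 CPM in WT-C, and 0.695, 0.361 and 0.297 CPM in KO-D, against 3.93, 3.74 and 3.24 CPM in KO-C (log2 -2.01 ± 0.42, adjusted p = 0.00539, and -2.82 ± 0.42, adjusted p = 0.000369). Gm4208 had 1.73, 2.75 and 6.64 CPM in WT-D, against 12.03, 18.5 and 11.0 CPM in WT-C, and 3.38, 2.89 and 2.08 CPM in KO-D, against 14.6, 22.7 and 15.5 CPM in KO-C. It fell by 2.05 and 2.62 (adjusted p = 0.00329 and 0.00037), and for Hnf4aos, BC049987, Gm21057 and Gm4208 alike WT-D replicate 3 was the diabetic library nearest to the non-diabetic ones. Gm41750 fell by 2.90 and 2.34 (adjusted p = 0.00343 and 0.00613). Gm31105, opposite the adaptor gene Gab1, fell in KO (log2 -2.18 ± 0.36, adjusted p = 0.000759), and its WT difference of -0.97 had an adjusted p of 0.0701. Gm33050 fell in WT (log2 -1.97 ± 0.46, adjusted p = 0.0101), a call lost without WT-D replicate 1. The row named Anxa13, after an annexin of epithelial apical membranes, had 3.54, 3.2798 and 5.12 CPM in WT-D, against 13.3, 13.2 and 19.3 CPM in WT-C, and 6.54, 2.27 and 4.01 CPM in KO-D, against 9.01, 10.6 and 16.6 CPM in KO-C, and fell by 1.92 and 1.55 (adjusted p = 0.00235 and 0.00403). C4a fell by 1.45 and 2.44 (adjusted p = 0.0351 and 0.00144) while its near-identical neighbour C4b rose by 1.92 and 1.5, and how reads were split between the pair is uncertain.

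Small nucleolar RNAs, which guide chemical modification of ribosomal RNA, are cut from the introns of their host genes. Of 19 host genes among the members 1 rose and 1 fell in WT, with a median of -0.08. This is 10.5%, beside 17.5% of all members and 22.0% of all genes. In KO 2 rose and 2 fell (21.1%, beside 20.3% and 31.1%), with a median of 0.26. Without WT-D replicate 1 the WT count was 0, and without WT-D replicate 3 it was 1 higher and 2 lower. Snhg15 had 4.89, 5.02 and 4.09 CPM in WT-D, against 3.16, 1.15 and 2.41 CPM in WT-C, and 5.34, 4.60 and 5.35 CPM in KO-D, against 1.64, 1.52 and 1.33 CPM in KO-C, with no overlap. It rose by 1.13 ± 0.29 and 1.70 ± 0.29 (adjusted p = 0.0157 and 0.000896), the WT call being lost without WT-D replicate 1 or 2. Snhg18 had 20.1, 20.0 and 29.2 CPM in WT-D, against 55.4, 33.6 and 35.3 CPM in WT-C, and fell by 0.83 (adjusted p = 0.0127), a call lost without the same libraries. Snhg8 had 0.695, 1.67 and 1.46 CPM in KO-D, against 4.20, 3.11 and 3.07 CPM in KO-C, and fell by 1.44 (adjusted p = 0.00695), while in WT its groups overlapped. Gas5, also of this class, had differences of -0.28 (adjusted p = 0.17) and 0.26 (adjusted p = 0.197). A list of 23 genes held ribosomal protein genes and also Eef2, Eef1a1, Eif4a2 and Rack1. Of the 23, 4 fell in WT (17.4%, beside 8.22% of all genes) and 9 in KO (39.1%, beside 17.4%), Eef2 and Rack1 among the 9.

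Of the 12 members of the nuclear body and abundant nuclear class, limma called 0 in WT (2 at an unadjusted p under 0.05, 0 by edgeR, and 1 higher and 1 lower by DESeq2), with a median of 0.22. Without WT-D replicate 3 the WT count was 3 higher and 1 lower. In KO it called 4 higher (33.3%, beside 13.6% of all genes), with a median of 0.66. Besides Oip5os1 these 4 were A330023F24Rik, Kcnq1ot1 and Pvt1. A330023F24Rik had 5.62, 7.62 and 5.47 CPM in KO-D, against 1.76, 1.84 and 1.36 CPM in KO-C, and rose by 1.85 ± 0.49 (adjusted p = 0.0119). Kcnq1ot1, which silences its imprinted cluster in cis, had 2.46, 2.53 and 3.15 CPM in KO-D, against 1.12, 1.33 and 0.493 CPM in KO-C, and rose by 1.47 ± 0.44 (adjusted p = 0.0225). Pvt1, downstream of Myc, rose by 0.70 (adjusted p = 0.0303), and the groups of all 4 were apart. The calls of Kcnq1ot1 and Pvt1 were lost without KO-C replicate 3 or KO-D replicate 3, and that of Pvt1 also without KO-D replicate 1. Of 16 genes for paraspeckle proteins 1 was called in KO, as lower (6.25%, beside 17.4% of all genes lower).

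Of the 4 imprinted members 2 rose in WT and 1, Kcnq1ot1, rose in KO (50% and 25%, beside 13.7% and 13.6% of all genes), and no difference between the genotypes passed its own test. Airn, which silences Igf2r on the paternal chromosome, had 10.6, 11.4 and 12.7 CPM in WT-D, against 5.35, 6.95 and 6.56 CPM in WT-C, and rose by 0.87 (adjusted p = 0.0194). Peg13, which lies in an intron of Trappc9, had 18.5, 20.6 and 13.3 CPM in WT-D, against 8.64, 10.5 and 11.9 CPM in WT-C, and rose by 0.74 (adjusted p = 0.0131). WT-D lay above WT-C in all libraries for both genes, and both calls were lost without WT-C replicate 1, WT-D replicate 1 or WT-D replicate 2. Among 10 members beside HOX genes or nephron transcription factors 1 rose and 3 fell in WT, with a median of -0.43. This is 40%, beside 17.5% of all members and 22.0% of all genes. In KO 1, Hnf4aos, fell (10%, beside 20.3% and 31.1%), with a median of -0.18. Without WT-D replicate 1 only 1 call was left in WT, as lower. Foxd2os rose by 1.04 (adjusted p = 0.0329). Hoxb3os and Hnf1aos1 fell by 0.88 and 1.08 (adjusted p = 0.0358 and 0.0397), and each of these 3 calls was lost without any of 4 single libraries, WT-D replicates 1 and 2 among them.

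Of 15 members studied before in diabetic kidney limma called 0 in WT (1 at an unadjusted p under 0.05, 0 by edgeR and 1 lower by DESeq2), with a median of 0.08. In KO 3 rose (Gm4419, Kcnq1ot1 and Pvt1) and Snhg16 fell by 0.86 (adjusted p = 0.0283, lost without any of 5 single libraries), with a median of 0.45. This is 26.7% called, beside 20.3% of all members and 31.1% of all genes. Without WT-D replicate 3 the WT count was 1 higher and 1 lower. Of 7 members on the microRNA host list 1 rose in WT (14.3%, beside 13.7% of all genes) and 2 in KO (28.6%, beside 13.6%), and both, Mirt1 and Mir670hg, reached 0.5 CPM in diabetic groups only. Mirt1, which was also on the immune list and is named from infarcted mouse heart, rose in both genotypes. It had 0.890, 1.19 and 1.07 CPM in WT-D, against 0.465, 0.392 and 0.340 CPM in WT-C, and 0.632, 0.952 and 1.31 CPM in KO-D, against 0.323, 0.349 and 0.290 CPM in KO-C (log2 1.2 ± 0.28, adjusted p = 0.0107, and 1.29 ± 0.28, adjusted p = 0.0043). The groups of Mirt1 did not overlap. Mir670hg rose in KO by 1.16 (adjusted p = 0.0371), a call lost without any of 5 single libraries. Of 5 members linked to p53, limma, edgeR and DESeq2 called 0 in WT (0 also at an unadjusted p under 0.05). Each called 1, Pvt1, in KO (20%, beside 13.6% of all genes higher). Of 24 coding p53 targets, also listed with earlier results of these data known, 18 rose and 1 fell in WT, and 18 rose and 2 fell in KO. The rises were 75% in each genotype, beside 13.7% and 13.6% of all genes. They were not all the same genes, as Bbc3 passed the test in WT alone and Fas in KO alone.

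A few members differed widely among the diabetic mice of 1 group. Gm48362 had 20.8, 36.5 and 9.90 CPM in WT-D, against 3.12, 1.85 and 4.28 CPM in WT-C, and 2.37, 35.2 and 34.8 CPM in KO-D, against 4.31, 4.09 and 2.26 CPM in KO-C. Gm47761 had 12.9, 15.7 and 2.92 CPM in WT-D, against 1.26, 1.07 and 2.28 CPM in WT-C, and 1.45, 16.2 and 10.8 CPM in KO-D, against 2.73, 1.84 and 2.81 CPM in KO-C. WT-D replicate 3 was the lowest of its group and KO-D replicate 1 lay at the level of KO-C in both genes, and Gm46349 and Gm42047 showed the same. All 4 rose in WT (log2 2.71, 2.45, 2.41 and 2.05, adjusted p = 0.0307, 0.0334, 0.0295 and 0.0321) and missed the threshold in KO (2.04, 1.37, 1.42 and 1.62, adjusted p = 0.071, 0.184, 0.147 and 0.0628). Gm46349 reached 0.5 CPM in diabetic groups only. The 4 WT calls were lost without WT-C replicate 1, WT-C replicate 2, WT-D replicate 1 or WT-D replicate 2.

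**Figure D4:**
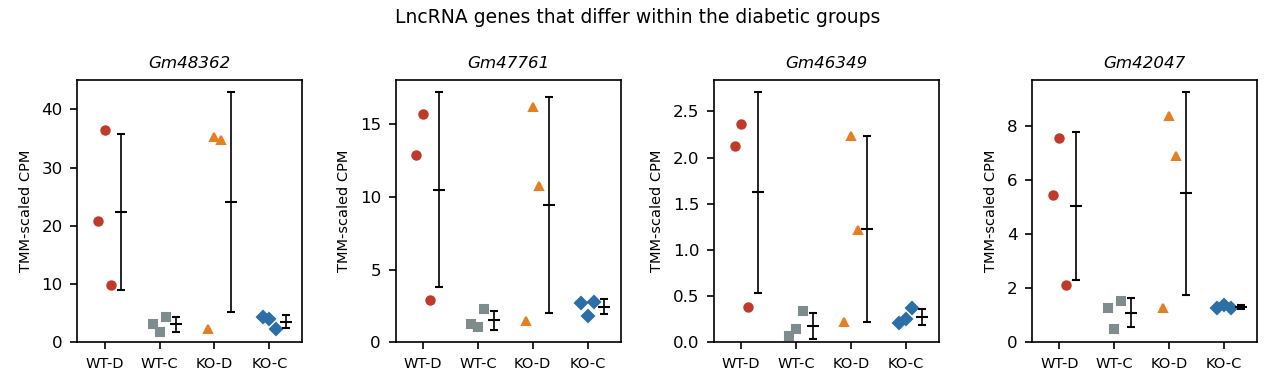
TMM-scaled CPM of Gm48362, Gm47761, Gm46349 and Gm42047, with single libraries as points and the mean ± SD of 3 mice beside them, for WT-D, WT-C, KO-D and KO-C from left to right. In each panel 1 KO-D library lies with the KO-C libraries, at 2.37 CPM for Gm48362, and 1 WT-D library lies well below the other WT-D libraries.

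Comparing KO-C with WT-C asks what the deletion did without diabetes. No member passed the limma test (background 0%), where 56 had an unadjusted p under 0.05 and the smallest adjusted p was 0.586, and edgeR and DESeq2 also called 0. Comparing KO-D with WT-D asks what it did in diabetic mice. Here 6 members fell, 0.743% beside a background of 5.53% of all genes (0.103% higher and 5.43% lower). The count was 0 without WT-D replicate 1, WT-D replicate 3 or KO-D replicate 3, 1 without KO-D replicate 1, 10 without KO-D replicate 2 and 11 without WT-D replicate 2.

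Gm26917, which lies on chromosome 17 beside a copy of ribosomal RNA sequence, had 1.83, 3.38 and 2.02 CPM in KO-D, against 24.6, 6.56 and 15.5 CPM in WT-D (log2 -2.49 ± 0.39, adjusted p = 0.01). KO-C libraries had 8.80, 8.88 and 7.68 CPM and WT-C libraries 9.93, 5.66 and 5.71 CPM, all above KO-D, and WT-D replicate 2 lay within their range. Gm15222 overlaps Bmp4, the gene of a growth factor of kidney development, on the opposite strand without shared exon bases. It had 0.126, 0.197 and 0.268 CPM in KO-D, against 0.853, 0.573 and 0.550 CPM in WT-D (log2 -1.36 ± 0.28, adjusted p = 0.0166). The WT-D libraries were at the level of WT-C, at 0.698, 0.561 and 0.679 CPM, and Bmp4 itself differed by -0.80 (adjusted p = 0.0586). D330023K18Rik had 0.948, 1.02 and 0.862 CPM in KO-D, against 2.15, 1.86 and 3.34 CPM in WT-D (log2 -1.25 ± 0.25, adjusted p = 0.0144). Gm10076 had 29.1, 32.8 and 28.5 CPM in KO-D, against 58.9, 43.3 and 57.4 CPM in WT-D (log2 -0.81 ± 0.21, adjusted p = 0.0397). In 1810021B22Rik and C330013E15Rik the differences were -1.17 and -0.97 (adjusted p = 0.0444 for both). KO-D lay below WT-D in every library for all 6 genes. 1810021B22Rik shares 88 exon bases with Trabd on the opposite strand. Trabd fell by 1.41 in KO-D against KO-C (adjusted p = 0.000353), where 1810021B22Rik fell by 1.48 (adjusted p = 0.00316).

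**Figure D5:**
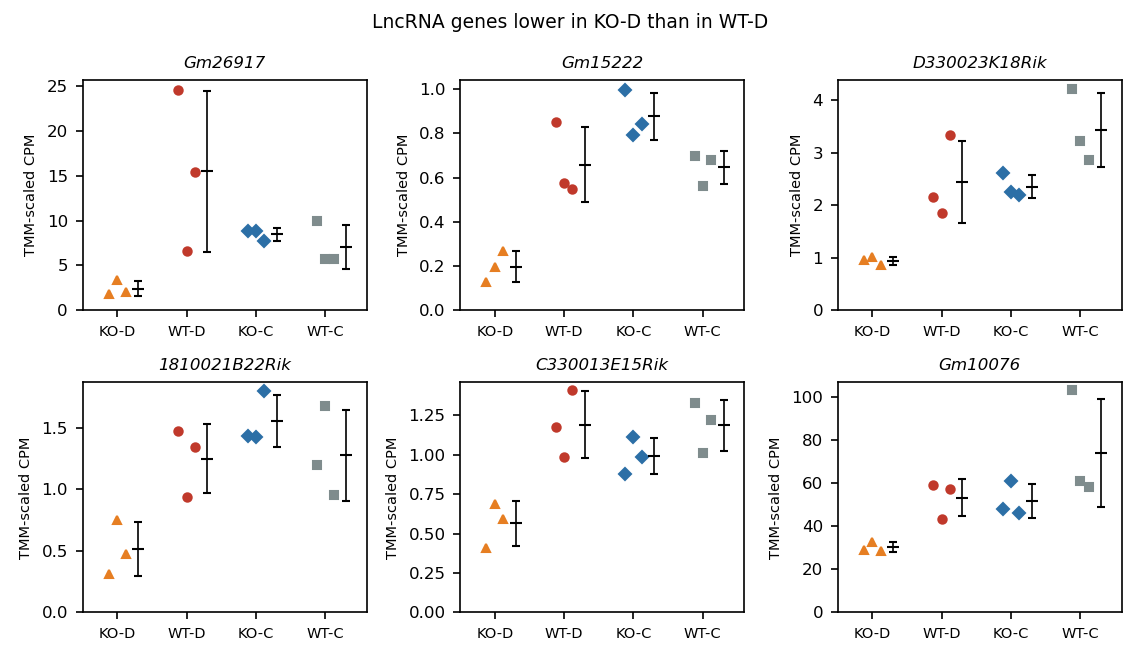
TMM-scaled CPM of the 6 lncRNA genes called for KO-D against WT-D, with single libraries as points and the mean ± SD of 3 mice beside them, for KO-D, WT-D, KO-C and WT-C from left to right. The KO-D libraries are the lowest of the 4 groups in each panel, for Gm15222 at 0.126 to 0.268 CPM.

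The test of the difference itself, the change with diabetes in KO minus that in WT, called 0 members with limma (background 0%). It left 41 members with an unadjusted p under 0.05, and the smallest adjusted p was 0.0771. Gm26917 (-2.79 ± 0.55) and Gm15222 (-1.75 ± 0.40) both had that value. edgeR called 0 and DESeq2 called Gm26917 alone (-2.89, adjusted p = 0.000223). Without WT-D replicate 2 limma called Gm26917 and Gm15222 (adjusted p = 0.00604 and 0.0418), and without KO-D replicate 2 it called Gm26917 (-3.05, adjusted p = 0.0278).

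Comparing KO-D with WT-C sets both factors together against the untouched group, and it shares the WT-C libraries with the comparison of WT-D and WT-C. In it 98 members rose and 147 fell, 30.4% beside a background of 40.1% (19.4% higher and 20.7% lower), and without scaling 255 rose and 65 fell, with the median of all genes at 0.535. Gm36161 rose most among members whose groups were apart (log2 3.25 ± 0.42, adjusted p = 0.000135), followed by 9330175E14Rik at 2.76 and C030037D09Rik at 2.56. Gm16310 had 0.632, 3.45 and 1.55 CPM in KO-D, against 0.299, 0.168 and 0.170 CPM in WT-C, and rose by 2.40 (adjusted p = 0.00264). Gm41750, Gm21057, Hnf4aos and BC049987 fell by 3.46, 3.09, 2.85 and 2.73. Gm16310 reached 0.5 CPM in diabetic groups only, and B930092H01Rik and Gm41750 did so in non-diabetic groups only. B930092H01Rik had 0.19, 0.23 and 0.119 CPM in KO-D, against 1.53, 1.01 and 1.19 CPM in WT-C, and fell by 2.27 (adjusted p = 0.000438).

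Fewer of the scarce members were called. In WT-D against WT-C the share called was 10.3% of members between 0.5 and 1 CPM, 21.1% between 2 and 5 CPM and 31.5% at 10 CPM and over. Protein-coding genes gave 30.1%, 29.7% and 22.1% in the same bands. The median spread between replicates on the log2 scale was 0.434 in the lowest and 0.273 in the highest band of members, and 0.475 and 0.211 in those of coding genes. In KO-D against KO-C the shares were 14.8%, 22.2% and 25.9% for members and 30.5%, 34.9% and 37.0% for coding genes.

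By position, members with a divergent start had a median log2 difference of -0.32 in WT-D against WT-C, with 4 higher and 12 lower of 106. This is 15.1% called, beside 17.5% of all members and 22.0% of all genes. In KO-D against KO-C their median was -0.14, with 4 higher and 14 lower (17%, beside 20.3% and 31.1%). Members that overlapped no coding gene gave 21 higher and 35 lower of 302 in WT (18.5%), and 33 higher and 32 lower in KO (21.5%). Those with exon bases opposite a coding gene gave 12 higher and 31 lower of 287 in WT (15%), and 31 higher and 23 lower in KO (18.8%). Over 102 divergent pairs with both genes tested, the log2 differences of member and partner had a correlation across genes of 0.276 in WT and 0.408 in KO, and the pair moved in the same direction in 53 and 58 of them. Over 272 pairs with exon overlap on opposite strands these correlations were 0.427 and 0.323. In that class 15 pairs in WT and 19 in KO had both genes called in the same direction, 3 and 7 in opposite directions, and 22 and 26 had the member called and the partner not. The partner's level was a median of 12.3 times that of the member, the pairs share libraries and possibly reads, and these values are descriptions without a test.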

How the data were processed

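RNA of the renal cortex of 12 mice was sequenced as poly(A) TruSeq RNA V2 libraries. The authors aligned reads with STAR 2.7.3a to mm10 and deposited CPM per gene (reads over the library's counted total, without TMM scaling or logs), made with edgeR 3.28.0 in R 3.6.1; whether counting used strand is not given in the sources used here. A deposited table of the authors' comparisons (log2 fold changes and p-values) was not used. Dividing each column by its smallest value above 0 recovered whole reads (100% of 298586 values above 0 within 0.01). No column of sample values lacked a sample (0).

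Genes were kept by filterByExpr (10 reads, 18461 genes). The main test was limma 3.58.1 (lmFit, eBayes with trend, 8 residual degrees of freedom) on log2(TMM-scaled CPM + 0.1) over all 12 libraries in R 4.3.3, with Benjamini-Hochberg adjustment over all genes tested, and it was tested on simulated data. Each group had 3 mice. Alternatives were other scaling, pseudocounts, filters, edgeR 4.0.16 and DESeq2 1.42.0 on the recovered reads, a replicate block, only the groups compared, and each library left out.

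Named genes were the 12 members of highest mean, up to 8 increases and 8 decreases per comparison among called members without overlap of the groups, and members of the lists. Members and lists were chosen with earlier results of these data known. Positions come from GENCODE M21, which held 806 of 807 members (794 at the same position).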

Additional observations from a re-analysis of the deposited data

How the results depend on the processing

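Leaving out 1 library moved the count of members called to 49 to 203 for WT-D against WT-C, 93 to 155 for KO-D against KO-C, 0 to 11 for KO-D against WT-D, 171 to 222 for KO-D against WT-C and 0 to 2 for the difference between the genotypes. At an adjusted p of 0.01 limma called 50 members for WT-D against WT-C, 71 for KO-D against KO-C, 0 for KO-D against WT-D and 130 for KO-D against WT-C. With all genes of at least 1 read kept, 78 were called for WT-D against WT-C and 3 for KO-D against WT-D. KO-D against WT-D also gave 3 with RLE size factors, 3 with upper-quartile factors, 2 without scaling, 13 with DESeq2, 0 with only the groups compared and 3 with the replicate block, against 6. DESeq2 called 1 member for the difference between the genotypes. The cause of these changes was not tested. After group means were taken out, same-numbered libraries had correlations of -0.35 to 0.295, and 1 of 12 correlated best with its own number. These values showed no pairing by number, but with 3 mice a group they cannot exclude it. The replicate block gave 117 calls for diabetes in WT and 145 in KO, 0 for the deletion without diabetes and 3 with it, 223 for both together and 0 for the difference. Of 182 single-gene values 176 kept direction and call with edgeR, 174 with DESeq2 and 123 without scaling, and none that was called changed sign under any alternative. Members under 1 CPM rest on few reads in the non-diabetic libraries, and 3 mice a group limit every test.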
